A study of Homo sapiens with 6 samples.

Results

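The genes described here are those whose transcript level differed 4-fold or more among 3 CCM3 -/- clones, K17, K18 and K19, of CI-huVEC, an InSCREENeX line of immortalised endothelial cells from the human umbilical vein. Each clone is 1 line derived after CRISPR/Cas9 editing of CCM3 exon 3, and each gave 1 mRNA sequencing library at passage 31. The wild-type lines WT 1, WT 2 and WT 4 of the same cells, also at passage 31, were used only to place the clones. The labels give all 6 samples the same clone entry, HKO, and leave unsaid if WT 1, WT 2 and WT 4 were cloned. Levels are counts-per-million (CPM) of the library total. A gene was taken where at least 1 clone reached 5 CPM and the highest clone level divided by the lowest, each plus 0.5 CPM, was 4 or more. This gave 166 genes of 10959 that reached 5 CPM in a clone (1.51%), out of 28514 listed. Since the fold among clones chose the genes, it is a description, and with 1 library for each clone no test was made. Folds are on the CPM plus 0.5 scale, which understates differences of low genes, except where a CPM ratio or a lower bound against 0 counts is given, both without the offset.

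CCM3, also called PDCD10, is a small adaptor protein that holds GCKIII kinases and links the CCM complex of endothelial cells to the STRIPAK phosphatase complex, and its loss causes cerebral cavernous malformations. A clone grows from a single edited cell and carries forward whatever expression state that cell had, including which imprinted, X-linked or developmentally silenced genes were in use. Clones of the same edit therefore share the targeted gene but need not share the rest of their transcriptome. Library preparation also leaves a mark that depends on base composition, because transcripts rich in G and C are amplified and sequenced with an efficiency that varies from library to library.

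The promoters of 4 genes are printed because genes low in K17 and genes high in K17 differed in base composition. JOSD2 and NUDT11 were low in K17 and lay far apart in transcript GC content (68.4% and 42.6%). IFITM1 and FSTL5 were high in K17 and lay apart in the same way (56.1% and 38.3%). Each sequence runs from 250 bases before to 50 bases after the RefSeq transcript start, from RefSeq on GRCh38.p14, and capitals mark CpG dinucleotides. The windows are chr19:50511142-50511441 on the minus strand for JOSD2, chrX:51496543-51496842 on the minus strand for NUDT11, chr11:313790-314089 on the plus strand for IFITM1 and chr4:162163951-162164250 on the minus strand for FSTL5.
JOSD2: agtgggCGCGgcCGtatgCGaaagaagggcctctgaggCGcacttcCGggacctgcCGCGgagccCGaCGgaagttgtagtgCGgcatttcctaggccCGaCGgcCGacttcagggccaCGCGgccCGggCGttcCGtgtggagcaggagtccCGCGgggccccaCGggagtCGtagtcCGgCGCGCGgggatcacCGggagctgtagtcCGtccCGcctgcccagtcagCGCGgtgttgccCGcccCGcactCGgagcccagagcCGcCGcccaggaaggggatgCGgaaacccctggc
NUDT11: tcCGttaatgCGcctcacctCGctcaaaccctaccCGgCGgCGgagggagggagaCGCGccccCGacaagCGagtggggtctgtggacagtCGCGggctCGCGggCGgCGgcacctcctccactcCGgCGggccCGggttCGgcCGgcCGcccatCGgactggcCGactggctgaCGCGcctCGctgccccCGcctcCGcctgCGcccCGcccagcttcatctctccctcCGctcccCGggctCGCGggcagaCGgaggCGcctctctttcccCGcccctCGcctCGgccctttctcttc
IFITM1: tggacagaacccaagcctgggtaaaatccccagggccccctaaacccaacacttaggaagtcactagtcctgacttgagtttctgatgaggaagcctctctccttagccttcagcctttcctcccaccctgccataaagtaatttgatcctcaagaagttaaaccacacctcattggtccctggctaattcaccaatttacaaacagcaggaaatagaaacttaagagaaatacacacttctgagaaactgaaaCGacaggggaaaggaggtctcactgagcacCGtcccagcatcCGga
FSTL5: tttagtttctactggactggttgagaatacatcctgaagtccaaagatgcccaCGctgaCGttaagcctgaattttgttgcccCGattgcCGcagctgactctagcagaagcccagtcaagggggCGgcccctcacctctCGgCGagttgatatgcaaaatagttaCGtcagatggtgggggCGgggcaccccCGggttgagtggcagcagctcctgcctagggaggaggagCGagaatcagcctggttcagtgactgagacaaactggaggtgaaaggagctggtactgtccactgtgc
The JOSD2 window held 38 CpG and the NUDT11 window 40, against 3 in the IFITM1 window and 11 in the FSTL5 window. The dinucleotide CG, which reads the same on both strands, was found in 96.0% of all 35116 RefSeq windows of this length, and 9.91% of them held 38 or more. Over the 117 genes of the set with a RefSeq window, the median was 30.5 CpG for genes low in K17 (30 windows) and 11.5 for genes high in K17 (20 windows). The median was 27 over 8725 tested genes. It was 30 for genes high in K19 (7 windows) and 20.5 for genes low in K19 (6 windows). For genes high in K18 it was 17 (6 windows), and for genes low in K18 it was 15 (9 windows). Genes in which no clone stood alone had a median of 8 (39 windows), so neither the high nor the low value was particular to K17. For NUDT11 a CpG-dense promoter stood before a transcript of low GC content, so the 2 properties are given separately.

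The targeted gene was transcribed in all clones. PDCD10 had 42.7 CPM in K17, 36.4 CPM in K19 and 30.9 CPM in K18, against 60.8, 62 and 62.7 CPM in WT 1, WT 2 and WT 4. The clones lay below the wild-type lines, and they differed among themselves 1.37-fold, so PDCD10 is not one of the 166 genes. None of the 25 tested genes of the list for the CCM complex, STRIPAK and MEKK3-ERK5 targets reached the 4-fold threshold, beside 1.51% over all tested genes, a share at which a list of this length holds fewer than 1.

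Library totals ranged from 28280417 to 32919491 counts, so that 5 CPM stood for 141 counts or more and 3 counts for 0.0911 to 0.106 CPM. The chi-square of counts per degree of freedom was 73.1 for K17 with K18 and 74.4 for K17 with K19, against 21.0 for K18 with K19 and 2.16 to 4.47 for pairs of wild-type lines. By this measure the K17 library stood apart from those of the other 2 clones. Every pair of clone libraries was further apart than any pair of wild-type libraries. The measure uses counts as they are, so it includes the trend with transcript GC content described below. Endothelial markers summed to between 3856 and 4183 CPM in the clones, against 2487 to 2538 CPM in the wild-type lines. Smooth muscle and pericyte markers summed to 6.22 to 17 CPM in the clones, against 301 to 316 CPM in the wild-type lines, nearly all of it RGS5, a regulator of G protein signalling. RGS5 had 14.4 CPM in K19, 11.3 CPM in K17 and 4.95 CPM in K18, against 300.2, 300.01 and 314.4 CPM in WT 1, WT 2 and WT 4. No other marker of that list passed 1.37 CPM in any library. Fibroblast, epithelial, leukocyte and neural markers each summed to 8.88 CPM or less in every clone, with ACTG2, a smooth muscle marker, and DPT, CDH1, KRT5, CLDN4, ESRP1, SOX10 and STMN2 at 0 counts in all 3. No marker of these lists was among the 166 genes.

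The same rule applied to the 3 wild-type lines took 0 of 10787 genes (0%), and the widest wild-type difference of any gene was 2.94-fold. At a lower threshold of 1.5-fold, 2418 genes differed among the clones (22.1%), against 24 genes among the wild-type lines (0.222%). Both counts include a trend with transcript GC content, described below, that was larger in the clones than in the wild-type lines. No count with that trend removed was made at 1.5-fold. The 166 genes themselves spanned at most 1.96-fold in the wild-type lines, with a median of 1.12-fold. Among the clones their median was 6.11-fold, with 50 genes under 5-fold and 27 at 16-fold or more. Most were low in level, since 104 stayed under 20 CPM in every clone and 12 reached 100 CPM. By annotated type 158 were protein-coding and 3 were long noncoding RNAs. Exact 95% Poisson intervals of the highest and lowest clone were apart in all 166 genes, and those of all 3 clones in 108. The same counts chose the genes for a wide fold, so separation of these intervals was nearly fixed in advance. No share over all tested genes is set beside the 108. These intervals cover counting error only, so they say nothing of how a second culture of the same clone would vary.

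K17 was the clone that most often stood alone. A clone was said to stand apart where, on the log2 scale, its distance to the middle clone was at least 2 times the distance between the other 2. K17 stood apart in 64 genes, high in 28 (0.255% of tested genes) and low in 36 (0.328%). K18 stood apart in 24, high in 10 (0.0912%) and low in 14 (0.128%). K19 stood apart in 21, high in 11 (0.1%) and low in 10 (0.0912%). In the other 57 genes (0.52%) the clones were graded, with no clone alone. Taken as pairs, 104 genes differed 4-fold between K17 and K18 (63 higher in K17, 0.575%, and 41 higher in K18, 0.374%). Between K17 and K19 the number was 98 (45 higher in K17, 0.411%, and 53 higher in K19, 0.484%). Between K18 and K19 it was 52 (24 higher in K18, 0.219%, and 28 higher in K19, 0.255%). With the rule applied to 2 clones only, 49 genes were taken without K17, 97 without K18 and 103 without K19.

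**Figure D1:**
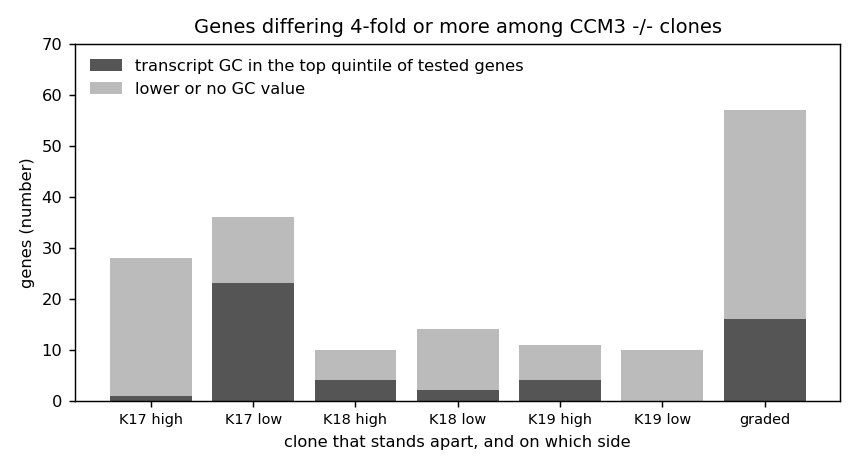
Number of genes that differed 4-fold or more among the CCM3 -/- clones, by the clone that stood apart and on which side (x axis), with the part whose transcript GC content lay in the top quintile of tested genes in dark grey. The class low in K17 held 36 genes, 23 of them in the top quintile, against 1 of 28 in the class high in K17.

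Genes high in K17 were led by a neuronal enzyme, secreted proteins and a cadherin. UCHL1, a deubiquitinase abundant in neurons, had 175 CPM in K17, 1.31 CPM in K19 and 0.212 CPM in K18, against 185, 184 and 184 CPM in WT 1, WT 2 and WT 4. K17 was close to the wild-type level while the gene was nearly silent in K18 and K19, and the 246-fold difference was the widest of the set. ADAMTS18, a secreted metalloproteinase, had 61.9 CPM in K17, 2.71 CPM in K19 and 0.778 CPM in K18, against 39.9, 42.4 and 44.1 CPM in WT 1, WT 2 and WT 4, with K17 again nearest to the wild type. CDH2, which codes for N-cadherin, had 32.3 CPM in K17, 1.78 CPM in K19 and 1.24 CPM in K18, against 108, 95.7 and 98.3 CPM in WT 1, WT 2 and WT 4. Here all 3 clones lay below the wild-type lines, K17 least so.

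A further pair was seen at its highest in K17 and was low in the wild type. CXCR7 (now ACKR3), an atypical receptor that takes up the chemokine CXCL12, had 15.3 CPM in K17, 0.469 CPM in K19 and 0.0354 CPM in K18, against 0.79, 0.861 and 0.528 CPM in WT 1, WT 2 and WT 4. The single count in K18 gave a CPM ratio of 431-fold, with an exact 95% counting interval of 77 to 17079.9. FSTL5, a secreted follistatin-like protein, had 19.4 CPM in K17, 0.804 CPM in K19 and 0.0354 CPM in K18, against 4.28, 3.54 and 3.35 CPM in WT 1, WT 2 and WT 4. Its ratio of K17 to K18, where 1 count was seen, was 549-fold, with an exact 95% counting interval of 98.1 to 21724. For CXCR7 the level in K17 was above every other library and K18 and K19 were no higher than the wild type, whereas for FSTL5 the wild-type lines lay between K17 and the other clones.

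The remaining genes high in K17 spanned 4.09-fold to 21.9-fold. Over the whole class the wild-type mean was nearer to K17 in 18 genes and nearer to K18 and K19 in 10. Against the range of the wild-type lines, 5 of the 28 were above it in all clones, 9 below it in all clones, and 14 had clones on both sides.

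Genes low in K17 covered a wide range of base composition. The widest differences were mostly in genes of ordinary GC content, PLTP being the most GC-rich of the leading 5 at 59.8%. PLTP, which transfers phospholipids between lipoproteins, had 31.1 CPM in K19, 22.8 CPM in K18 and 0.447 CPM in K17, against 30.9, 35.2 and 31.6 CPM in WT 1, WT 2 and WT 4. K18 and K19 were near the wild-type level and K17 was nearly silent. NUDT11, a phosphatase of inositol pyrophosphates on the X chromosome, had 34.1 CPM in K18, 24.3 CPM in K19 and 0.893 CPM in K17, against 40.1, 42.9 and 44.2 CPM in WT 1, WT 2 and WT 4, with the same arrangement. ZNF542, annotated as a transcribed pseudogene, had 12.2 CPM in K19, 7.96 CPM in K18 and 0.412 CPM in K17, against 12.2, 11.8 and 13.3 CPM in WT 1, WT 2 and WT 4.

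BEX1, an X-linked adaptor protein named for its expression in brain, differed from these in its wild-type level. It had 30.2 CPM in K18, 19.1 CPM in K19 and 1.34 CPM in K17, against 0.273, 0.215 and 0.247 CPM in WT 1, WT 2 and WT 4, so K18 and K19 were far above all wild-type lines and K17 less far. NME2, a nucleoside diphosphate kinase, had 39.7 CPM in K19, 37.4 CPM in K18 and 4.26 CPM in K17, against 7.96, 8.64 and 5.04 CPM in WT 1, WT 2 and WT 4. K17 was near the wild type here and the other 2 clones were high. NME2 may share reads with its close copy NME1 and a read-through transcript, and BEX1 belongs to a family of similar genes, so both levels are uncertain.

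**Figure D2:**
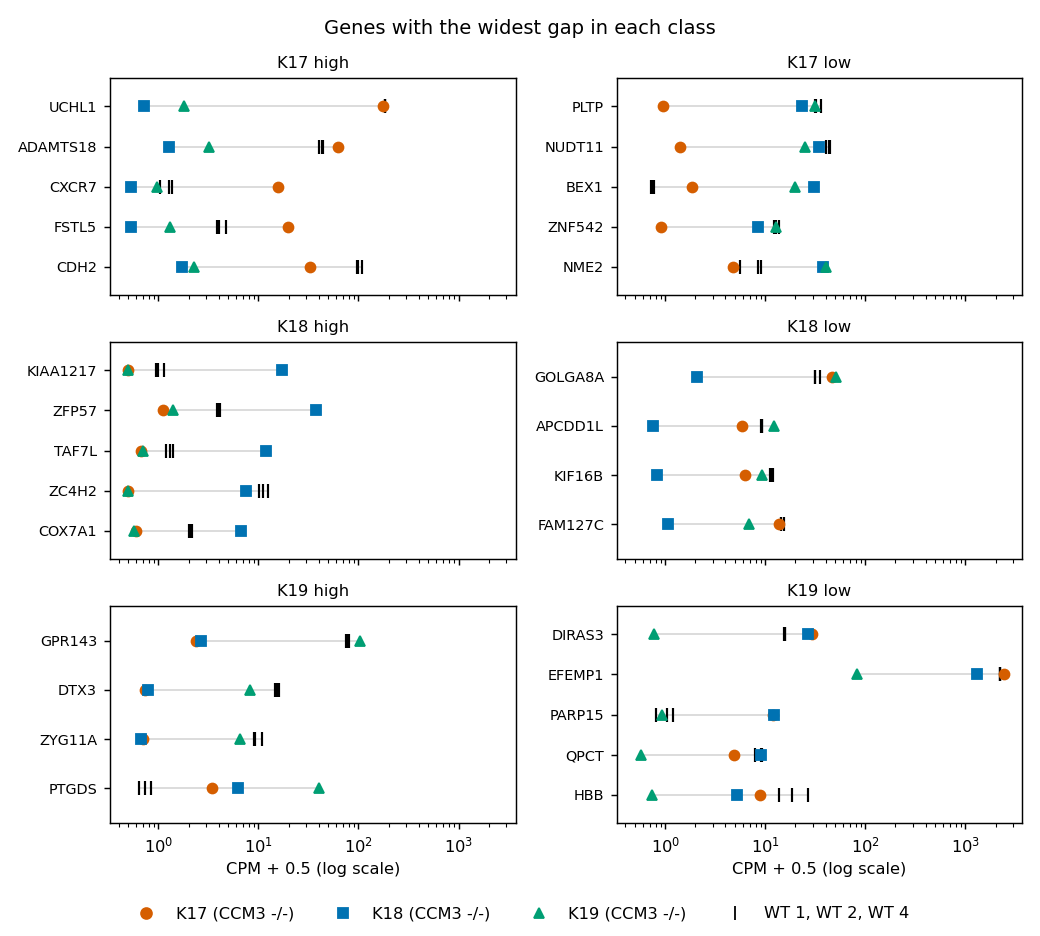
Levels (CPM plus 0.5, log axis) of the genes with the widest gap in each of the 6 classes, up to 5 each, 1 row per gene, with coloured symbols for K17, K18 and K19 and black ticks for the 3 wild-type lines. The wild-type ticks sit close together in most rows, least so for HBB, while the clones spread up to 246-fold for UCHL1.

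The rest of the class low in K17 was made up mostly of GC-rich genes with folds near the threshold. ISG15, an interferon-induced ubiquitin-like protein with 64.1% transcript GC, had 16.2 CPM in K18, 16.1 CPM in K19 and 2.78 CPM in K17, against 3.95, 3.54 and 2.5 CPM in WT 1, WT 2 and WT 4. NDUFA11, a subunit of respiratory complex I with 62.3% GC, had 31.3 CPM in K19, 29.1 CPM in K18 and 6.77 CPM in K17, against 9.54, 9.93 and 7.5 CPM in WT 1, WT 2 and WT 4. LTBP4, a matrix protein that binds latent TGF-beta, had 12.4 CPM in K18, 7.98 CPM in K19 and 2.68 CPM in K17, against 6.41, 6.46 and 5.39 CPM in WT 1, WT 2 and WT 4, with 64.1% GC. In ISG15 and NDUFA11, K17 was near the wild-type lines and K18 and K19 were both higher.

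Just inside the threshold were JOSD2, JAK3 and LTBP4, at 4.04-fold, 4.04-fold and 4.06-fold, all low in K17. JOSD2, a deubiquitinase, had 8.88 CPM in K19, 7.81 CPM in K18 and 1.82 CPM in K17, against 2.7, 2.86 and 1.97 CPM in WT 1, WT 2 and WT 4. JAK3, a kinase of cytokine receptors, had 13.6 CPM in K18, 11.2 CPM in K19 and 2.99 CPM in K17, against 3.1, 3.48 and 3.21 CPM in WT 1, WT 2 and WT 4. Just outside were the AP-1 factor JUNB, the inflammatory caspase CASP1 and the interleukin-1 receptor IL1R1. JUNB had 37.8 CPM in K19, 33.5 CPM in K18 and 9.14 CPM in K17 (3.98-fold), CASP1 had 15 CPM in K17, 4.19 CPM in K19 and 3.39 CPM in K18 (3.98-fold), and IL1R1 had 13 CPM in K17, 4.39 CPM in K19 and 2.86 CPM in K18.

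Over the 36 genes low in K17, the wild-type mean was nearer to K17 in 22 and nearer to K18 and K19 in 14. All clones lay above the wild-type range in 4 of them and below it in 5, and 17 had clones on both sides. For most of the class, K17 had the level nearer to the wild type, with no adjustment for GC content. Among the 13 genes that stayed past 4-fold with the GC trend removed (below), the balance was the other way. The wild-type mean was nearer to K18 and K19 for PLTP, NUDT11, ZNF542, ITGA4, GABBR1, CD70, FAT1 and MOCOS. It was nearer to K17 for BEX1, NME2, FAP, PKP1 and SEMA3C.

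The GC dependence was not limited to the 166 genes. For each library the log2 difference from the mean of the other 2 libraries of its group was ranked against transcript GC content over all tested genes with a value. Across 10598 genes the Spearman coefficient was -0.64 for K17, 0.62 for K18 and 0.44 for K19. The wild-type lines had coefficients of 0.27, 0.62 and -0.67 in WT 1, WT 2 and WT 4 across 10439 genes. Genes are not independent replicates, and the 3 differences within a group share libraries, so the coefficients are descriptions and their signs must balance. Without K17 the coefficient of K19, then set against K18 alone, was -0.17, and that of K18 was 0.17.

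The size of the trend, however, was larger in the clones than in the wild-type lines. In the quintile (1 of 5 equal groups) of genes with the highest GC content (58.4% to 73.8%), the median log2 difference was -0.61 in K17, 0.35 in K18 and 0.28 in K19, against -0.16 to 0.12 in the wild-type lines. In the lowest quintile it was 0.19 in K17, -0.12 in K18 and -0.07 in K19. Of the genes in the highest quintile, 92.8% were below 0 in K17. Transcript length had coefficients of 0.02, -0.07 and 0.02 with the differences of K17, K18 and K19.

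**Figure D3:**
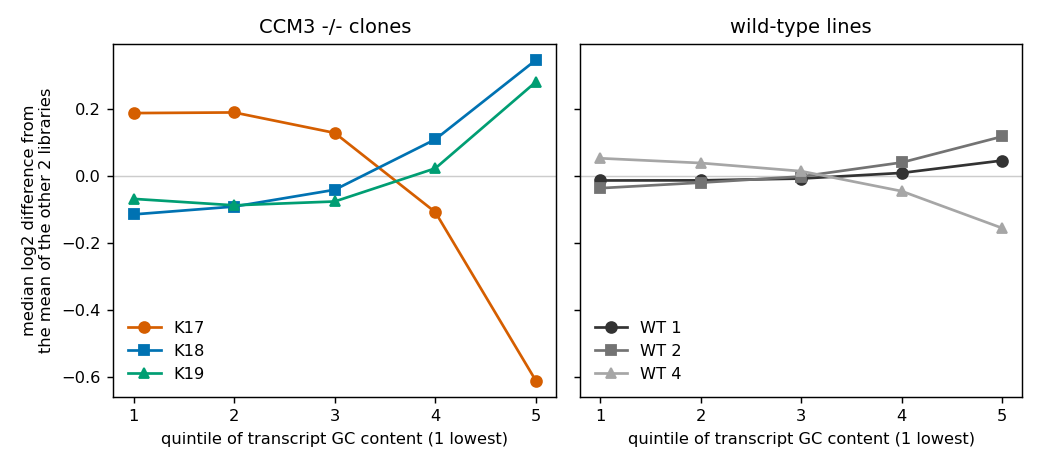
Median log2 difference of each library from the mean of the other 2 libraries of its group (y axis), over quintiles of transcript GC content (x axis, quintile 1 lowest), for the CCM3 -/- clones (left) and the wild-type lines (right). K17 reached -0.61 in the GC-richest quintile, against 0.35 for K18 and 0.28 for K19, while the wild-type lines stayed between -0.16 and 0.12.

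The genes of the set were spread unevenly over GC content, mainly at the 2 ends. From the lowest to the highest quintile of GC content they numbered 14, 33, 35, 30 and 50. These are 0.660%, 1.56%, 1.65%, 1.42% and 2.36% of tested genes, so the middle quintiles were alike. Of the 50 in the highest quintile, 23 were low in K17. Median transcript GC was 62.3% for genes low in K17 and 48.0% for genes high in K17, with 49.2% for all tested genes. Of the 35 genes low in K17 with a GC value, 23 lay in the highest quintile, against 1 of 26 genes high in K17.

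A smooth trend of level on GC content was then removed from each clone library, and the rule was applied again. It took 131 genes in place of the 162 with a GC value, 123 of them in common and 8 in addition. Of the genes low in K17, 13 stayed at 4-fold or more and 22 did not. Of the genes high in K17, 22 stayed and 4 did not. In the other classes those that stayed numbered 8 of 9 high in K18, 13 of 14 low in K18, 10 of 11 high in K19, 10 of 10 low in K19 and 47 of 57 graded. After removal the numbers over the quintiles of GC content were 14, 29, 32, 31 and 25.

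Among genes low in K17 those that kept a 4-fold difference after the removal were divided from the others by GC content, with few exceptions. Of the 23 in the highest quintile only PLTP and CD70 stayed. Below that quintile every gene low in K17 with a GC value stayed except MLPH, at 56.6% GC, which was 3.95-fold after removal. CD70 and MLPH were picked after their values were seen. PLTP was 24.6-fold and NUDT11 28.5-fold after removal, and BEX1, ZNF542, NME2, FAP, FAT1, SEMA3C and PKP1 also stayed past 4-fold. ISG15 was 2.81-fold, NDUFA11 2.72-fold, JAK3 2.56-fold, LTBP4 2.2-fold and JOSD2 1.71-fold after removal. UCHL1 stayed at 249-fold. How far library preparation and how far the cells contributed to the trend cannot be told apart with 1 library for each clone.

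**Figure D4:**
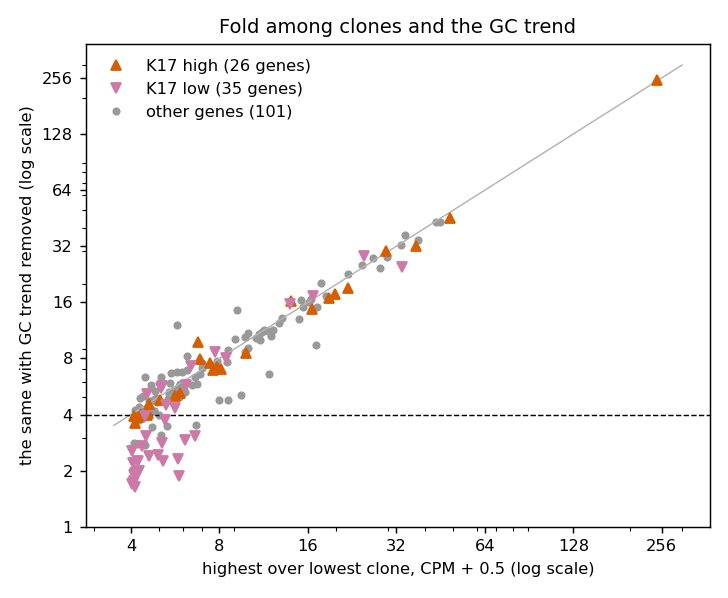
Highest over lowest clone as measured (x axis) and with each library's GC trend removed (y axis), both log axes, for the 162 genes with a GC value; the diagonal marks no change and the dashed line the 4-fold threshold. Of 35 genes low in K17 (downward triangles), 22 fall below the dashed line, against 4 of 26 genes high in K17 (upward triangles).

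Genes high in K18 included regulators tied to imprinting and the germline. ZFP57, a zinc finger protein that keeps methylation at imprinted loci, had 36.7 CPM in K18, 0.905 CPM in K19 and 0.619 CPM in K17, against 3.31, 3.63 and 3.45 CPM in WT 1, WT 2 and WT 4. TAF7L, a germ cell counterpart of a general transcription factor subunit, had 11.5 CPM in K18, 0.201 CPM in K19 and 0.172 CPM in K17, against 0.699, 0.80 and 0.916 CPM in WT 1, WT 2 and WT 4. KIAA1217, the human counterpart of mouse sickle tail, had 16.7 CPM in K18, 0 CPM in K17 and 0 CPM in K19, against 0.456, 0.492 and 0.634 CPM in WT 1, WT 2 and WT 4. With 0 counts of KIAA1217 in K17 and in K19, set at 3 counts for a library, K18 was at least 162-fold higher than K17. In these 3 genes K18 was above both the other clones and the wild type.

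In ZC4H2 the arrangement was the other way round, with K18 the clone that had kept the gene. This X-linked zinc finger gene had 7.07 CPM in K18, 0 CPM in K17 and 0 CPM in K19, against 9.69, 10.6 and 12 CPM in WT 1, WT 2 and WT 4. With 0 counts in K17 the level in K18 was at least 68.6-fold higher. COX7A1, the muscle form of a cytochrome c oxidase subunit, had 6.15 CPM in K18, 0.103 CPM in K17 and 0.067 CPM in K19, against 1.58, 1.69 and 1.51 CPM in WT 1, WT 2 and WT 4. Against the 2 counts in K19 its CPM ratio was 91.8-fold, with an exact 95% counting interval of 25 to 764. Over the 10 genes high in K18 the wild-type mean was nearer to K18 in 3 and nearer to K17 and K19 in 7.

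Genes low in K18 were mostly ones in which the other clones were nearer to the wild type. GOLGA8A, a golgin, had 50.8 CPM in K19, 45.7 CPM in K17 and 1.59 CPM in K18, against 31, 34.8 and 31 CPM in WT 1, WT 2 and WT 4, but near-identical copies of this gene on chromosome 15 make its level uncertain. APCDD1L had 11.8 CPM in K19, 5.29 CPM in K17 and 0.248 CPM in K18, against 8.84, 8.67 and 8.66 CPM in WT 1, WT 2 and WT 4. KIF16B, an endosomal kinesin, had 8.78 CPM in K19, 5.81 CPM in K17 and 0.318 CPM in K18, against 11.4, 10.8 and 11.2 CPM in WT 1, WT 2 and WT 4. In each of these, K18 was the library that stood below all others.

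The same held for a further gene. FAM127C, an X-linked gene with close copies and therefore of uncertain level, had 13.1 CPM in K17, 6.3 CPM in K19 and 0.566 CPM in K18, against 14.7, 14 and 14 CPM in WT 1, WT 2 and WT 4. Over the 14 genes low in K18 the wild-type mean was nearer to the other clones in 12 and nearer to K18 in 2, the exceptions being TNFSF18 and OAS2. All clones lay below the wild-type range in 8 of the 14, and clones lay on both sides of it in 5.

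Genes high in K19 included several that K19 shared with the wild type and the other clones did not. GPR143, a receptor of pigment cell organelles encoded on the X chromosome, had 102 CPM in K19, 2.19 CPM in K18 and 1.86 CPM in K17, against 74.2, 79 and 76.2 CPM in WT 1, WT 2 and WT 4. DTX3, a ubiquitin ligase of the deltex family, had 7.78 CPM in K19, 0.283 CPM in K18 and 0.241 CPM in K17, against 14.7, 15.5 and 14 CPM in WT 1, WT 2 and WT 4.

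ZYG11A, a substrate receptor of a cullin ubiquitin ligase, had 6.1 CPM in K19, 0.206 CPM in K17 and 0.177 CPM in K18, against 8.63, 8.8 and 10.3 CPM in WT 1, WT 2 and WT 4, in the same arrangement. PTGDS, which makes prostaglandin D2, was different. It had 39.9 CPM in K19, 5.76 CPM in K18 and 2.92 CPM in K17, against 0.243, 0.338 and 0.141 CPM in WT 1, WT 2 and WT 4, so that all clones were above the wild type and K19 most. Over the 11 genes high in K19 the wild-type mean was nearer to K19 in 7 and nearer to K17 and K18 in 4.

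Genes low in K19 held the most abundant transcript of the set. EFEMP1, the matrix glycoprotein fibulin-3, had 2431 CPM in K17, 1303 CPM in K18 and 81.3 CPM in K19, against 2206, 2195 and 2230.3 CPM in WT 1, WT 2 and WT 4. K17 was near the wild-type level, K18 lower and K19 29.7-fold below K17. DIRAS3, an imprinted Ras-like gene expressed from the paternal copy, had 28.6 CPM in K17, 26.3 CPM in K18 and 0.268 CPM in K19, against 15.2, 14.8 and 15.3 CPM in WT 1, WT 2 and WT 4. QPCT, an enzyme that cyclises terminal glutamine, had 8.66 CPM in K18, 4.4 CPM in K17 and 0.067 CPM in K19, against 8.57, 7.44 and 8.77 CPM in WT 1, WT 2 and WT 4. Its CPM ratio of K18 to K19, where 2 counts were seen, was 129-fold, with an exact 95% counting interval of 35.4 to 1073. In all 3 genes K19 lay furthest below the wild type.

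HBB, which codes for beta-globin, had 8.42 CPM in K17, 4.67 CPM in K18 and 0.235 CPM in K19, against 18.1, 26.1 and 13.1 CPM in WT 1, WT 2 and WT 4. The 1.96-fold spread of its wild-type lines was the widest of the set, and all clones lay below them. PARP15, an ADP-ribosyltransferase, had 11.7 CPM in K18, 11.6 CPM in K17 and 0.436 CPM in K19, against 0.547, 0.707 and 0.317 CPM in WT 1, WT 2 and WT 4. For PARP15, K19 was at the wild-type level and K17 and K18 were both higher. Over the 10 genes low in K19 the wild-type mean was nearer to K17 and K18 in 8 and nearer to K19 in 2.

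In the 57 graded genes no clone stood alone. SPOCK1, a matrix proteoglycan gene, and NRCAM, a neuronal adhesion molecule, had the widest folds among them and were picked after their values were seen. SPOCK1 had 469 CPM in K17, 90.2 CPM in K19 and 9.94 CPM in K18, against 641, 613 and 626 CPM in WT 1, WT 2 and WT 4. NRCAM had 72.6 CPM in K17, 14 CPM in K19 and 2.09 CPM in K18, against 226, 222 and 235 CPM in WT 1, WT 2 and WT 4. In both, K17 was nearest to the wild type and K18 furthest. K17 was the highest clone in 35 of the 57 graded genes and the lowest in 19, K18 the highest in 6 and the lowest in 25, and K19 the highest in 16 and the lowest in 13.

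Against the wild-type lines, the set differed in arrangement from the genes at large. Clones lay on both sides of the wild-type range in 75 of the 166 genes (45.2%), against 21.8% of 11270 genes at 5 CPM in any library. All clones were above the range in 29 (17.5%), against 22.6%, and all below it in 45 (27.1%), against 35.4%. A gene chosen for a wide spread among clones is likelier to have clones on both sides, so these shares are descriptions. For these 75 genes a mean over the 3 clones combines levels on opposite sides of the wild type.

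A part of the set was close to on or off. In 31 genes at least 1 clone was under 1 CPM while every wild-type line was at 5 CPM or more. Silent here means under 1 CPM, so a clone just above that level is not counted even if far below the wild type. By this cut K18 alone was the silent clone in 11 of these, K17 alone in 8 and K19 alone in 5. The other 7 were silent in 2 clones. Over all tested genes, 14 were silent by this cut in K17, 17 in K18 and 7 in K19, and every one was in the set. A tested gene has 5 CPM in a clone, so under 1 CPM in another nearly meets the 4-fold rule. The counts are therefore largely a product of that rule. UCHL1 and ADAMTS18 were among those under 1 CPM in K18 alone, but K19 was also far below the wild type in both, at 1.31 and 2.71 CPM. PLTP, NUDT11, ZNF542 and BMPR1B were among those silent in K17 alone, and DIRAS3, QPCT and HBB among those silent in K19 alone. DTX3, ZYG11A and FLT4 were silent in both K17 and K18.

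In the opposite direction, 24 genes of the set were under 1 CPM in every wild-type line. Of these, 9 reached 5 CPM in K17 alone, 5 in K18 alone and 2 in K19 alone. CXCR7 was among the first, KIAA1217 and TAF7L among the second, and TNXB among the third. BEX1, PKP1 and PTGDS reached 5 CPM in K18 and K19 but not in K17. No share over all tested genes is set beside the 24, so the number is a description only.

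Genes were also grouped by function in 39 lists, which held 663 tested genes, 39 of them in the set. Read against 1.51% over all tested genes, 22 lists held at least 1 gene of the set and 17 held none. The longest list with none had 35 tested genes, for which the share over all tested genes gives 0.53 genes, so a list without a member is near the background. The nuclear-encoded respiratory chain held COX7A1 and NDUFA11 of 29 genes. None of 34 cell cycle and DNA replication genes differed 4-fold among clones, nor did any of 35 cytosolic ribosomal protein genes, 22 genes of the unfolded protein and ATF4 response, 23 of cholesterol and fatty acid synthesis, 19 of hypoxia and glycolysis or 24 immediate-early and AP-1 genes. HOX genes (18 tested), Notch signalling genes (13), ion channels and pumps (13), genes of MHC class I and II (11) and Wnt signalling genes (9) held none either. The lists are small and were chosen with earlier results of these data known. Together they hold a larger share of genes of the set than tested genes at large. The share of a single list is therefore only a description, and no list test was made. Without K17, K18 or K19 the list genes taken numbered 10, 24 and 25.

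Matrix genes were among those that set clones apart. The list of matrix proteases and inhibitors held 3 of 24 (12.5%) and that of matrix glycoproteins and proteoglycans 3 of 27 (11.1%). MMP1, interstitial collagenase, had 1015 CPM in K17, 278 CPM in K19 and 84.1 CPM in K18, against 434, 399 and 411 CPM in WT 1, WT 2 and WT 4. It lies beside WTAPP1, a pseudogene that was in the set in the same order of clones, and since no source used here gives the strand setting of the counting, the pair may share reads. ADAMTS1, a protease that cleaves the proteoglycan versican, had 132 CPM in K17, 31.2 CPM in K19 and 30.2 CPM in K18, against 87.5, 89 and 84.5 CPM in WT 1, WT 2 and WT 4. VCAN, versican itself, had 16.8 CPM in K17, 7.61 CPM in K19 and 1.27 CPM in K18, against 38.7, 31.4 and 34.1 CPM in WT 1, WT 2 and WT 4. K17 had the highest level of all 3 among the clones.

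Other matrix genes were highest in K19. COL4A6, an X-linked chain of basement membrane collagen, had 161 CPM in K19, 72.2 CPM in K18 and 23 CPM in K17, against 35.3, 37.5 and 34.7 CPM in WT 1, WT 2 and WT 4. It was the 1 member of 12 genes for fibrillar and network collagens. The median log2 difference of that list was 0.61 in K19, -0.02 in K18 and -0.37 in K17, beside -0.02, -0.01 and 0.07 over all tested genes. With the GC trend removed it was 0.54, -0.18 and -0.26. TNXB, tenascin-X, had 10.8 CPM in K19, 3.25 CPM in K18 and 1.2 CPM in K17, against 0.0911, 0.246 and 0.141 CPM in WT 1, WT 2 and WT 4. It was 3.52-fold after removal of the trend, and its level is uncertain since the partial copy TNXA is near-identical.

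Adhesion molecules differed in no common direction. Of 12 cadherins and protocadherins 3 were in the set (25%), namely CDH2, PCDH7 and FAT1. PCDH7, a protocadherin, had 20.2 CPM in K17, 8.01 CPM in K19 and 1.38 CPM in K18, against 16.5, 16.2 and 16.3 CPM in WT 1, WT 2 and WT 4. FAT1, a giant atypical cadherin, had 38.5 CPM in K19, 30.9 CPM in K18 and 7.22 CPM in K17, against 142, 134 and 142 CPM in WT 1, WT 2 and WT 4. CDH2 and PCDH7 were highest in K17, whereas FAT1 was low in K17 and in all clones far below the wild type. PKP1, plakophilin of desmosomes and the 1 member of 10 genes in the epithelial list, had 18.1 CPM in K18, 11.4 CPM in K19 and 3.02 CPM in K17, against 0, 0 and 0.0352 CPM in WT 1, WT 2 and WT 4.

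SELP, which codes for P-selectin of endothelial storage granules, had 66.5 CPM in K17, 35 CPM in K19 and 10.5 CPM in K18, against 3.58, 3.38 and 3.73 CPM in WT 1, WT 2 and WT 4. All clones were above the wild-type lines and their order was the one seen for VCAN and MMP1, with K18 lowest. SEMA3C, a secreted semaphorin, had 15.3 CPM in K19, 9.3 CPM in K18 and 2.61 CPM in K17, against 4.71, 3.94 and 4.37 CPM in WT 1, WT 2 and WT 4, the 1 member among 23 genes of axon guidance and neuronal adhesion.

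Of 27 pan-endothelial identity genes 1 was in the set (3.7%, beside 1.51% over all tested genes). Genes short of the threshold could still differ, as did VWF, the von Willebrand factor, named after its values were seen, which had 1216 CPM in K18, 796 CPM in K17 and 593 CPM in K19, against 367, 366 and 358 CPM in WT 1, WT 2 and WT 4. The gene in the set was EMCN, a sialomucin of capillary and venous endothelium, which had 15 CPM in K17, 5.77 CPM in K19 and 1.8 CPM in K18, against 56.3, 50.6 and 56.9 CPM in WT 1, WT 2 and WT 4. All clones lay below the wild type, K18 furthest. FLT4, the VEGF-C receptor of lymphatic endothelium, had 5.13 CPM in K19, 0.99 CPM in K18 and 0.206 CPM in K17, against 6.8, 6.86 and 5.71 CPM in WT 1, WT 2 and WT 4. It was the 1 member among 28 angiogenic ligands and receptors. Its level in K19 was close to that of the wild-type lines. BMPR1B, a BMP type 1 receptor, had 8.04 CPM in K19, 2.86 CPM in K18 and 0.928 CPM in K17, against 8.51, 8.92 and 8.73 CPM in WT 1, WT 2 and WT 4, in the same order of clones. With LTBP4 it made 2 of 27 genes of TGF-beta, BMP and activin signalling.

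**Figure D5:**
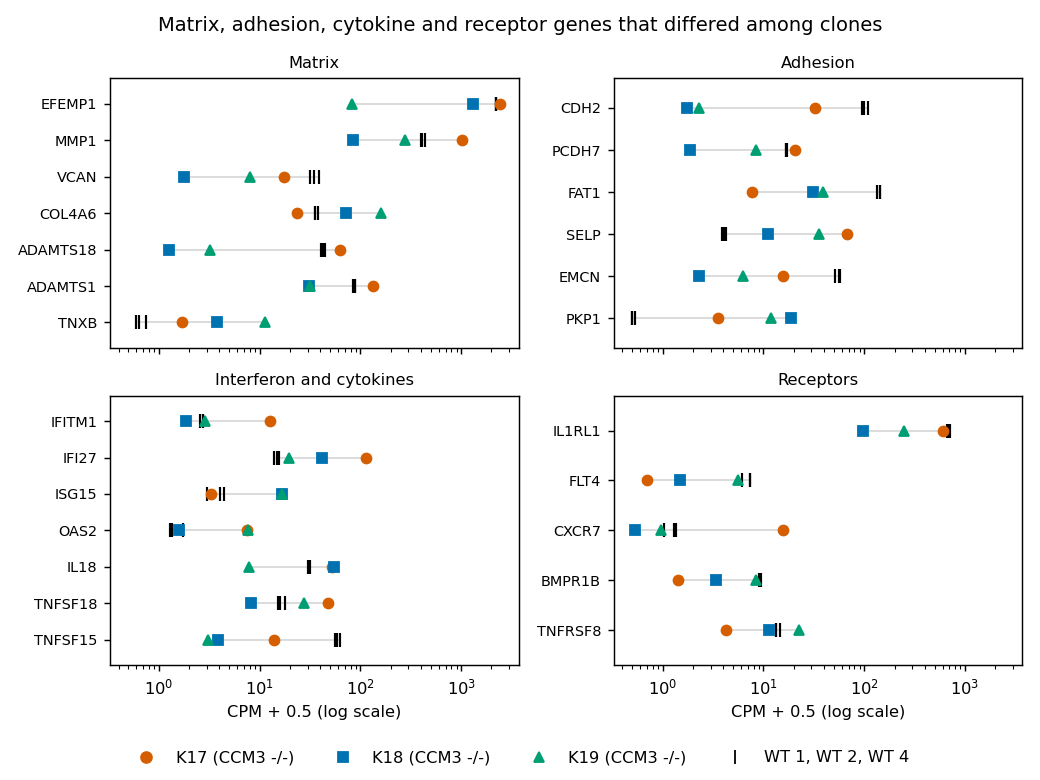
Levels (CPM plus 0.5, log axis) of matrix, adhesion, cytokine and receptor genes of the set, 1 row per gene, with coloured symbols for K17, K18 and K19 and black ticks for the 3 wild-type lines. The order of clones changes from row to row, with K17 highest for MMP1 and SELP and K19 highest for COL4A6 and TNFRSF8.

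The interferon-stimulated genes of the set did not move together. Of 22 tested, 4 were in the set (18.2%), each in another arrangement. Over all 22 the median log2 difference was 0.35 in K17, -0.11 in K18 and -0.06 in K19. With the GC trend removed it was 0.17, -0.02 and -0.09. Over all tested genes the medians were 0.07, -0.01 and -0.02. IFI27, a protein induced by type I interferon, had 112 CPM in K17, 41.4 CPM in K18 and 19.1 CPM in K19, against 15.2, 14.4 and 13.3 CPM in WT 1, WT 2 and WT 4. IFITM1, an antiviral membrane protein, had 12.2 CPM in K17, 2.38 CPM in K19 and 1.34 CPM in K18, against 2.25, 2.06 and 2.25 CPM in WT 1, WT 2 and WT 4, but its close copies IFITM2 and IFITM3 make the level uncertain. OAS2, a sensor of double-stranded RNA, had 7.11 CPM in K19, 7.04 CPM in K17 and 1.1 CPM in K18, against 0.79, 1.23 and 0.845 CPM in WT 1, WT 2 and WT 4. IFI27 and IFITM1 were highest in K17, OAS2 was low in K18 alone, and ISG15 was low in K17 alone. Of these 4, ISG15 fell below the threshold with the GC trend removed, at 2.81-fold.

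Cytokine genes held 3 of 16 (18.8%), again in 3 arrangements. IL18, an inflammasome cytokine, had 53.9 CPM in K18, 52.3 CPM in K17 and 7.27 CPM in K19, against 29.6, 30.8 and 31.4 CPM in WT 1, WT 2 and WT 4. TNFSF18, the GITR ligand, had 47 CPM in K17, 27.3 CPM in K19 and 7.64 CPM in K18, against 17.6, 15.3 and 14.8 CPM in WT 1, WT 2 and WT 4. TNFSF15, a cytokine made by endothelial cells, had 13.4 CPM in K17, 3.36 CPM in K18 and 2.58 CPM in K19, against 62.8, 55.2 and 58 CPM in WT 1, WT 2 and WT 4. IL18 was low in K19, TNFSF18 low in K18 and TNFSF15 high in K17, where it was still below the wild type. TNFSF15 was 3.98-fold with the GC trend removed.

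Of 17 receptors for interleukins, TNF and growth factors 2 were in the set (11.8%). IL1RL1, the receptor of interleukin-33, had 600.0 CPM in K17, 250.3 CPM in K19 and 97.9 CPM in K18, against 657, 674 and 703 CPM in WT 1, WT 2 and WT 4. It is one of the abundant transcripts of the set, with K17 near the wild type and K18 furthest below. TNFRSF8, also called CD30, had 22.3 CPM in K19, 10.9 CPM in K18 and 3.78 CPM in K17, against 12.9, 14 and 13 CPM in WT 1, WT 2 and WT 4, with K19 highest and K17 lowest. It fell below 4-fold with the GC trend removed.

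Among coagulation and fibrinolysis genes 2 of 22 were in the set (9.09%). SERPIND1, heparin cofactor II, had 23 CPM in K17, 5.83 CPM in K19 and 0.778 CPM in K18, against 14, 14.3 and 12.5 CPM in WT 1, WT 2 and WT 4. PTGS1, cyclooxygenase 1, had 13.6 CPM in K17, 8.45 CPM in K19 and 2.44 CPM in K18, against 196, 181 and 189 CPM in WT 1, WT 2 and WT 4. For SERPIND1 the wild type lay between the clones, while for PTGS1 every clone was at least an order of magnitude below it. SLC7A8, an amino acid transporter and the 1 member of 21 solute carriers, had 5.5 CPM in K17, 1.47 CPM in K19 and 0.601 CPM in K18, against 2.07, 2.09 and 1.83 CPM in WT 1, WT 2 and WT 4.

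Fibroblast and mesenchymal genes held 2 of 7. FAP, a surface protease of activated fibroblasts, had 36.9 CPM in K19, 28.4 CPM in K18 and 4.33 CPM in K17, against 11.2, 10.4 and 10.9 CPM in WT 1, WT 2 and WT 4. PI16, a secreted peptidase inhibitor typical of adventitial fibroblasts, had 258 CPM in K19, 117 CPM in K18 and 54.4 CPM in K17, against 1.18, 1.45 and 0.916 CPM in WT 1, WT 2 and WT 4. All clones were above the wild type in PI16 and K19 most. The difference among clones in PI16 fell below 4-fold with the GC trend removed. The fibroblast markers used to check the cells summed to 8.88 CPM in K19, 0.653 CPM in K17 and 0.601 CPM in K18, against 3.88 to 4.47 CPM in the wild-type lines, and their part in these differences was not tested.

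The remaining list members were few. NEFH, a neurofilament chain, had 5.4 CPM in K19, 0.743 CPM in K18 and 0.515 CPM in K17, against 5.44, 4.4 and 4.05 CPM in WT 1, WT 2 and WT 4. With UCHL1 it made 2 of 9 neural genes. MEST, an imprinted gene expressed from the paternal copy, had 66.7 CPM in K19, 24.4 CPM in K18 and 10.4 CPM in K17, against 341, 334 and 337 CPM in WT 1, WT 2 and WT 4. With DIRAS3 it made 2 of 13 imprinted genes. DIRAS3 was nearly silent in K19, where MEST was the highest of the clones. TDRD9, a germline RNA helicase, had 9.38 CPM in K17, 8.95 CPM in K19 and 1.52 CPM in K18, against 4.53, 4.92 and 4.58 CPM in WT 1, WT 2 and WT 4, the 1 member among 3 tested cancer-testis and germline genes.

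Some lists differed among clones by small steps without single genes reaching 4-fold. Cell cycle genes had a median log2 difference of 0.39 in K17, -0.02 in K18 and -0.31 in K19, and 0.38, -0.02 and -0.32 with the GC trend removed. Genes of cholesterol and fatty acid synthesis had 0.28 in K17, 0.05 in K18 and -0.21 in K19, and 0.20, 0.04 and -0.23 with the trend removed. Over all tested genes the medians were 0.07, -0.01 and -0.02. Core and linker histones had -0.58 in K17, 0.26 in K18 and 0.23 in K19, but 0.11, 0.00 and -0.12 with the trend removed. The histone difference between clones, over 10 tested genes, was therefore smaller once the trend was taken out, with its sign changed in K17 and K19. The difference of cell cycle genes kept its size.

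By chromosome the X held the largest share of the set. Of 345 tested X-linked genes 13 differed 4-fold or more (3.77%), against 1.51% over all tested genes and 2.62% on the next chromosome, which was chromosome 4. Of these 13 genes, 12 stayed past 4-fold with the GC trend removed, and with 1 clone left out 7 (without K17 or K19) or 9 (without K18) were taken. NUDT11, BEX1, TAF7L, ZC4H2, FAM127C, GPR143 and COL4A6 are described above. SCML1 and MAOA were picked after their values were seen. SCML1, a polycomb-related gene, had 8.1 CPM in K18, 1.24 CPM in K17 and 0.503 CPM in K19, against 11.6, 11.6 and 11.6 CPM in WT 1, WT 2 and WT 4. MAOA, monoamine oxidase A, had 34.5 CPM in K17, 14.9 CPM in K18 and 3.96 CPM in K19, against 71.3, 73.8 and 73.3 CPM in WT 1, WT 2 and WT 4.

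The X-linked genes did not share a pattern. GPR143 was kept in K19, and ZC4H2 and SCML1 in K18, each the clone nearest to the wild type, while NUDT11 was kept in K18 and K19. The median difference over all tested X-linked genes was 0.12 in K17, -0.04 in K18 and -0.05 in K19 on the log2 scale. These medians were close to those over all tested genes.

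Chromosome 19 held 15 of the 166 genes, 2.19% of its 686 tested genes, and 12 of the 15 were low in K17. Over all its tested genes the median log2 difference was -0.42 in K17, 0.25 in K18 and 0.17 in K19, and with the GC trend removed it was -0.02, 0.02 and 0.01. Of the 12 low in K17 only ZNF542 and CD70 stayed past 4-fold with the trend removed. Over all tested genes of the chromosome 8 were then past 4-fold, some of them not among the 166. Chromosomes 16 and 22 had medians of -0.21 and -0.28 in K17, and -0.04 on each with the trend removed.

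Neighbouring genes of the set were few, at 7 adjacent pairs by order in the RefSeq table for GRCh38.p14. In 4 of them both genes ranked the clones alike, namely MMP1 with WTAPP1, NR2F1 with NR2F1-AS1, ATP6V0C with AMDHD2, and TOX with CA8. NR2F1 and NR2F1-AS1, a nuclear receptor and its antisense transcript, may share reads if strand was not used in counting. The other pairs, JOSD2 with CLEC11A, GABBR1 with ZFP57 and BEX1 with BEX4, ranked the clones differently.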

How the data were processed

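RNA of CI-huVEC was sequenced after a stranded mRNA preparation, per the labels' protocols. STAR, HTSeq and the builds hg19 and GRCh37 are named per the submitters' processing notes; no source used here gives versions, annotation or strand setting. The authors deposited whole-number counts per gene symbol and, beside them, FPKM, which served as an alternative. Counts were divided by each library total (CPM). A further deposited table of the authors' own comparison was not used. In 13 of 28514 rows a date had replaced the name; these took 0.175% to 0.196% of counts, and none was among the 166 genes.

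Transcript GC content was the median over a gene's GENCODE release 29 transcripts, matched for 96.7% of tested genes and 97.6% of the 166. The GC trend was removed from each library by lowess with a span of 0.3 (statsmodels 0.14.6). Chromosomes, neighbours and promoters came from RefSeq on GRCh38.p14, another build than the files', so no other coordinates are given. TMM factors came from edgeR 4.0.16 and size factors from DESeq2 1.42.0 (R 4.3.3); tables used Python 3.11.15, pandas 2.3.3, NumPy 2.4.6, SciPy 1.17.1 and matplotlib 3.10.9. The rule and the trend removal were tested on simulated data.

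The 166 genes, the gene lists and the markers were chosen with earlier results of these data known. Genes named are the 5 with the widest gap in each of 6 classes, up to 4 per list, 3 on either side of the threshold and PDCD10; others are said to be named for completeness or after their values were seen. A few of the genes selected this way are left out of the text and plots.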

Additional observations from a re-analysis of the deposited data

How the results depend on the processing

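Scaling by TMM or DESeq2 size factors gave 168 and 167 genes, 166 of them shared, and thinning to the lowest library total gave 166, with 164 shared. With an offset of 2 CPM the rule took 89 genes (K17 apart in 30, K18 in 15, K19 in 13, graded 31; 25 in a list). A minimum of 20 CPM took 62 (K17 22, K18 7, K19 7, graded 26; all clones above the wild type 12, below 15, on both sides 31; 21 in a list, 6 on the X). A threshold of 8-fold took 58 (K17 17, K18 14, K19 11, graded 16; above 6, below 19, both sides 28; 11 in a list). The authors' FPKM, on which the same offset weighs otherwise, took 95. A minimum of 1 CPM took 228, with K19 apart in 40. With the GC trend removed K17 stood apart in 42. A gap ratio of 1 in place of 2 left 0 genes graded (K18 43, K19 36), and a ratio of 3 left K18 apart in 15. Leaving out 1 clone gave 49 to 103 genes, 10 to 25 in a list and 7 to 9 on the X. The GC coefficient then ranged from -0.66 to -0.58 for K17, from 0.17 to 0.66 for K18 and from -0.17 to 0.58 for K19. In the quintile of longest transcripts it was -0.53 for K17 and 0.51 for K18. Of the 68 genes the naming rule takes, 9 crossed below 4-fold with the GC trend removed and 17 with an offset of 2 CPM. No paired analysis was possible because the clone and wild-type numbers are not shared and no test was made. With 1 library for each clone, a clone cannot be told apart from its library.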
